A study of Homo sapiens with 14 samples.

Results

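Adenosines in the DRACH motif of single-exon genes were examined for their N6-methyladenosine (m6A) level, gene by gene and along the exon. A site was taken when the deposited table calls its exon the only exon of the gene, when it lay more than 10 nt from the upstream edge of that exon, and when its 5-base motif was DRACH (first base not C, second A or G, then A and C, last base not G). This gave 3730 sites in 304 genes, 0.916% of the 407343 sites of the table and 2.39% of its 156317 DRACH sites. Levels came from GLORI, a chemistry that turns unmethylated adenosine into a base read as G and leaves m6A read as A, so a site's level is given as A reads in percent of its A and G reads. The groups were 6 cancer cell lines kept with the solvent DMSO for 24 h, namely CAOV3, SKOV3, EFO21 and COV644 (all ovarian), A549 (lung carcinoma) and OE21 (oesophageal squamous carcinoma), and CAOV3 with 1 uM of STM3675 for 24 h, in a series on inhibition of METTL3. Each group had 2 libraries, 14 in all, and STM3675 was used in CAOV3 alone, at 1 dose and 1 time. The labels do not say whether the 2 libraries of a group came from separate cultures. P-values that compare libraries therefore measure the spread between libraries, which may be technical. Sign-flip tests over the 6 lines measure whether a difference recurs from line to line at the same sites. They take no account of the choice of sites or genes.

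As background, m6A is written into messenger RNA by a complex around METTL3 and METTL14, with adaptor proteins such as WTAP, VIRMA, RBM15 and RBM15B, and it is placed within DRACH. Exon junction complexes, which splicing leaves on the RNA just upstream of each exon-exon junction, are known to keep the writer away from nearby adenosines, and m6A is therefore scarce in short internal exons and plentiful in long internal and last exons. A single-exon gene is not spliced and carries no such complex. Many of these genes code for transcription factors, replication-dependent histones, heat shock proteins, protocadherins and small G protein regulators, and several came about as retrocopies of spliced genes.

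The sequence around a site could be read from RefSeq promoter windows of GRCh38.p14 for 34 of the 3730 sites, and all 34 motifs matched the table. The stretches below are shown for their levels with the same assay. Neighbouring DRACH sites of 1 gene, or sites close to the exon start, had very different levels. The CEBPB site had a level far above the mean of its motif. Each stretch runs 5′ to 3′ on the strand of the RNA, has 25 bases and has its DRACH motif in capitals.
CREBZF chr11:85663738-85663762 (minus): acaccatgtcAAACTtaccttagtg
CREBZF chr11:85663723-85663747 (minus): taccttagtgGGACAtcttcaccgg
CREBZF chr11:85663710-85663734 (minus): catcttcaccGGACAcatttcagag
CREBZF chr11:85663610-85663634 (minus): tgataacatgTGACTattaaatctc
PCBP1 chr2:70088379-70088403 (plus): tgacctggagGGACCacctctagat
PCBP1 chr2:70088409-70088433 (plus): ctcgattcaaGGACAacacaccatt
CEBPB chr20:50192157-50192181 (plus): ggcgccggcaAAACTttggcactgg
LCMT2 chr15:43330504-43330528 (minus): caaccgtgacAGACTgccattcctg
CLDN4 chr7:73831015-73831039 (plus): cggctggaagGAACTggtctgctca
H3C6 chr6:26225140-26225164 (plus): ctttgcagatGAACTatggcgcgta
In CREBZF, which codes for a leucine zipper transcription cofactor, both GGACA sites, 1394 and 1407 nt from the exon start, had mean levels over the 6 lines of 82.9% and 81.1%. The AAACT site at 1379 nt had 33.6% and the TGACT site at 1507 nt had 28.4%. The RefSeq gene of CREBZF is more than 1.5 times as wide as this exon. Its distances are counted from the edge of the deposited exon, and other transcript forms cannot be told apart. In PCBP1, a poly(C)-binding protein, the GGACA site at 944 nt had 61.3% and the GGACC site at 914 nt had 30.2%. The AAACT site of CEBPB (a C/EBP transcription factor), 1339 nt from the start, stood at 78.3%, well above the 43.1% mean of its motif. The AGACT site of LCMT2, 57 nt from the start, stood at 34%, below the 64.2% mean of its motif. CLDN4, a claudin of tight junctions, had 16.9% in CAOV3 at its GAACT site 31 nt from the start. The GAACT site of the histone gene H3C6 lay 17 nt from the start and had 96.4% in CAOV3. It was the exception among the sites nearest the start whose sequence could be read. The others were lower, such as the GAACT site of TMEM30B at 19 nt, with 39.1% in CAOV3. The AAACT site of SOX4 at 22 nt had 14.1% in EFO21 and 29.7% in A549.

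Over all sites of the table a library had 14047302 to 28663588 reads, and the median read number at a single-exon site was between 16.5 and 47. The median level of listed sites outside DRACH was taken as a rough measure of unconverted adenosine. It was 3.33% to 4.14% in COV644 and OE21, 10.3% to 15.8% in the other lines with DMSO and 8.85% to 8.89% with STM3675. Low levels are therefore not comparable between these sets of libraries. These sites too were listed by their level in DMSO libraries, so the median may differ from the unconverted share of all adenosines. Squamous markers (5 of 5) had 20 or more reads per listed site in OE21, and 3 or 4 of 6 ovarian markers did in the ovarian lines. The ovarian marker MUC16 had no listed site. EPCAM, on both the ovarian and the epithelial list, also passed in OE21. Of 4 epithelial markers, 4 passed in CAOV3 and COV644, 3 in EFO21 and A549, and 2 in SKOV3 and OE21. In A549 the lung factor NKX2-1 had under 1 read, and the other 3 lung markers had no listed site. Some markers were high in lines of another origin: NKX2-1 had 20 or more reads in COV644 and OE21, WT1 did in A549, and the squamous keratin gene KRT5 did in SKOV3. In CAOV3 the ovarian marker WT1 had under 1 read. Of 5 stromal and immune markers, 3 (COL3A1, PTPRC and CD3E) had no listed site, and COL1A1 or CD68 had 20 or more reads per site in every line. The table lists only sites with at least 20 reads and 25% in a DMSO library, so every mean below is a mean over listed sites.

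The 304 genes held between 1 and 48 sites, with a median of 11. A total of 33 genes had 1 site and 174 had 10 or more. RANBP6, an importin-like protein, had the 48 sites, and RBM15B, the writer-complex adaptor named above, had 42. Exons were 409 to 11511 nt wide, with a median of 2557 nt, and sites lay 17 to 9152 nt from the start. There were 4.18 listed DRACH sites per 1000 nt of single exon, 2.99 in last exons, 4.06 in first exons and 6.75 in internal exons, each over exons with a listed site. Leaving out exons without a listed site raises the density of short exons most. The internal exons counted had a median of 183 nt and 1 site, so these densities do not rank the classes. For 285 genes the RefSeq gene was at most 1.5 times as wide as the exon, for 17 it was wider, and 2 genes were not matched, so that a spliced form cannot be told apart for the 17. A total of 245 sites lay within the span of another gene on the same strand, where reads of both genes cannot be told apart. Sites with 20 or more reads in all 12 DMSO libraries numbered 1026, in 141 genes, and line comparisons rest on them.

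Single-exon sites were highly methylated in every line. Mean levels over the 1026 sites were 61.2% and 61.9% in the libraries of CAOV3, 60.4% and 61.5% in COV644, and 58.7% in both of A549. They were 56.3% in both libraries of EFO21, 55.8% and 55.5% in SKOV3, and 55% in both of OE21. The lines thus ran from 61.5% ± 0.52 (SD, n = 2) in CAOV3 to 55% ± 0.038 in OE21, and the libraries of CAOV3 and COV644 overlapped, as no other neighbours in that order did. An exact test over all 10395 ways to pair 12 libraries gave p = 0.00058. With the median level outside DRACH subtracted from each library, COV644 was highest and SKOV3 lowest, with a range of 15.2 points in place of 6.52. The same value was taken from every site of a library, the 21% to 28.4% of sites at 90% or more included. Part of the wider range may therefore come from the subtraction itself.

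Levels in single-exon genes were higher than in any other exon class of the same libraries. In CAOV3 the mean was 61.5% at single-exon sites and 50.6% at the 26556 covered DRACH sites of last exons, and in OE21 it was 55% and 42.1%. The difference was 12.2 points ± 1.53 (SD over 6 lines), from 10.8 points in EFO21 and SKOV3 to 14.3 in COV644. It had 1 direction in 6 of 6 lines, with an exact two-sided sign-flip permutation p of 0.0312 (adjusted over 3 exon classes, 0.0312), the smallest p that 6 lines allow. Against internal exons (8023 sites) the difference was 19.4 points and against first exons (785 sites) 18.3, both with p = 0.0312 in the exact sign-flip permutation test and 6 of 6 lines higher. Against last-exon sites more than 400 nt into the exon it was 14.5 points. Against internal-exon sites more than 400 nt from both edges, a comparison added after the data were seen, it was 5.52 points.

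**Figure D1:**
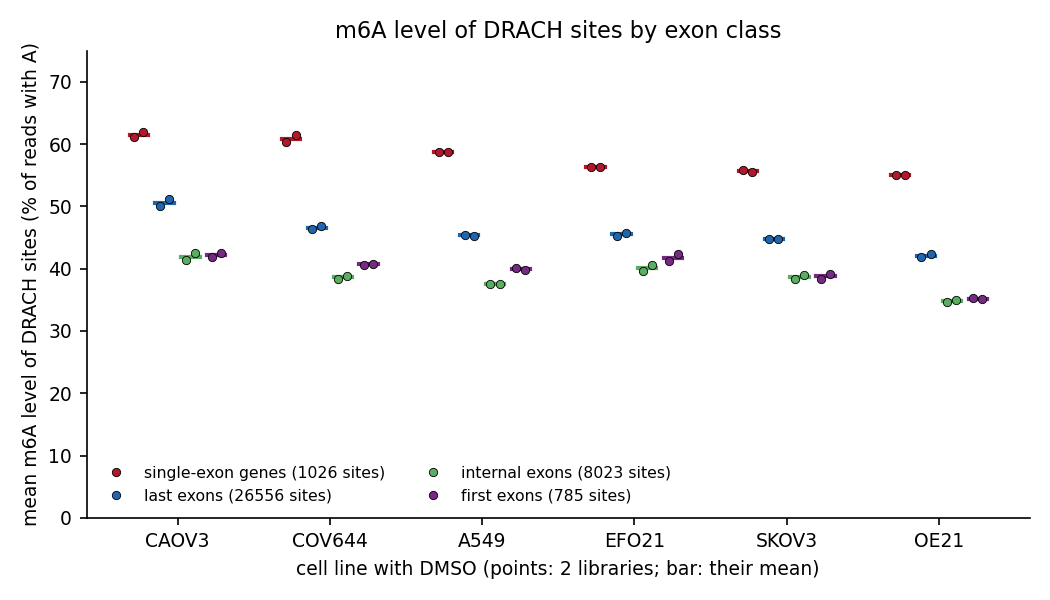
Mean m6A level (%) of DRACH sites in each of the 6 lines with DMSO, by exon class; points are the 2 libraries and bars their mean. Single-exon sites lie between 55% and 61.9% and above the other 3 classes in every line.

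Levels differed by motif. Of the variance of the 1026 site means, 28.8% lay between the 18 motifs. GGACT (166 sites) had the highest mean, 81%, from 78.7% in SKOV3 to 83.4% in CAOV3, and in last exons the same motif had 59.7%. GAACT had 69.9% in single-exon genes and 50.7% in last exons, GGACA 66.6% and 51.1%, and AGACT 64.2% and 49.9%. At the other end TGACC had 27% and 20.4%. Single-exon sites were higher for 15 of 15 motifs with enough sites, in all 6 lines for 14 of them. The exception was GAACA, with 37.1% and 35.3%, higher in 5 of 6 lines. By the base after the central AC, sites ending in T had 64.8% against 49.6% in last exons, sites ending in A 49.5% against 40.7%, and sites ending in C 41.9% against 34.7%. With each motif weighted equally, the difference from last exons was 9.46 points.

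Near-complete sites were common. A total of 187 of the 1026 sites (18.2%) had 90% or more in every line, and in last exons 1862 of 26556 (7.01%) did. Among single-exon sites 72 of 166 GGACT sites (43.4%), 34 of 125 GAACT sites (27.2%) and 23 of 105 GGACA sites (21.9%) were near-complete. TMEM203, a small transmembrane protein gene, and TSPYL1, a nucleosome assembly protein-like gene, had 6 such sites each, and TMEM185B had 5.

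Gene means average over sites, and averaging alone makes them spread less than the sites within a gene. Of the variance of the 1026 site means, 14.4% lay between the 141 genes. Whether genes differ by more than groups of unrelated sites of the same sizes was not tested. Among 108 genes with at least 3 covered sites, gene means ran from 23.1% to 96.3% with a median of 58.5%. The SD of site levels within a gene had a median of 30.1 points over 87 genes with 5 or more sites, and the SD of gene means was 10.7 points. Sites of 1 gene within 20 nt of each other differed by a median of 29.3 points, and sites over 500 nt apart by 32.2.

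The genes with the most covered sites had intermediate means made of very unequal sites. TAF7, a subunit of the TFIID complex (chr5:141318490-141320784, minus strand), had 25 covered sites from 16.6% to 99%, with a mean of 52.9% ± 1.6 in CAOV3 and 48.2% ± 1.2 in SKOV3. RNF26, a ubiquitin ligase of the endoplasmic reticulum, had 23 sites from 8.43% to 98% and a mean of 61.6%. ATXN7L3B had 22 sites and a mean of 54.6%. EID1, an inhibitor of the acetyltransferase p300, had 20 sites and 50.9%. KLHL9, a substrate adaptor of a cullin ubiquitin ligase, and MGAT2, a glycosyltransferase of the Golgi, had 19 sites each, with 61% and 53.1%. TSPYL1 had 18 sites and 61.5%.

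CREBZF (chr11:85657990-85665129, minus strand) differed most among lines in this set, from 55.2% ± 1 in CAOV3 and 54.1% ± 0.34 in COV644 to 42.8% ± 3.3 in OE21 and 39.7% ± 2 in EFO21, over 23 sites. Its A549 mean was 52.5% ± 0.39 and its SKOV3 mean 45.6% ± 0.93, so that CAOV3, COV644 and A549 stood above the other lines. A total of 21 of its 23 sites differed among lines in the quasi-binomial model described below, beside 39.5% of all sites of the table; with limma far fewer sites pass (18 of all 1026). CREBZF is 1 of the 17 genes with a wider RefSeq gene.

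High and low gene means came from few sites. TIGD5, a transposase-derived gene, had 96.3% over 3 sites, CLDN4 94.7% over 3, MARS2 (the mitochondrial methionyl-tRNA synthetase) 89.3% over 3 and TLNRD1 (talin rod domain containing) 83.2% over 3. The lowest were JUND, a subunit of the AP-1 transcription factor, with 23.1% over 4 sites, FRAT2, a GSK3 inhibitor of the Wnt pathway, with 23.5% over 3, the Wnt receptor FZD7 with 30.1% over 6 and ITPRIPL2 with 30.4% over 5. JUND had 29.7% ± 2.2 in CAOV3 and 11.4% ± 3.4 in OE21. A gene's mean moved with the sites that were covered: over the 6 sites of JUND covered in CAOV3 alone, the mean with DMSO was 52.2%, since these take in GGACT sites at 98.7% and 95.8%.

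Family means are given beside the mean of all sites, 58%. The AP-1, immediate early and C/EBP list had 56.8% over 56 sites in 7 genes, with JUN at 53.5% and IER5 at 57.8%. Histones had 58.1% over 22 sites in 7 genes, of which H2AX, at 66.9%, supplied 12 sites. The other histone genes ran from 13.4% to 77.4%, both with 1 site, and H2AJ had 38.9% over 3. The span of H2AX lies within that of DPAGT1 on the same strand. HSPA1A and HSPA1B, the stress-induced heat shock 70 genes, had 44.7% over 11 sites and 55.8% over 12; they are near-identical copies, and the labels do not say how reads were split between them. The small GTPases RHOB and RAP2B had 48.8% over 10 sites and 61.1% over 8. A mixed list of CHMP1B, EXOC8 (an exocyst subunit), KCTD12 and the nucleic acid binding proteins PURA and PURB had 56.7% over 46 sites, with CHMP1B, an ESCRT-III subunit, at 54.7% and PURB at 55.6%. Frizzled receptors had 31.3% over 8 sites in 2 genes (FZD7, and FZD1 with 34.7% over 2). SOX4, a developmental transcription factor, had 56.8% over 3 of its 36 sites. Clustered protocadherins (176 sites in 14 genes, 22 each in PCDHB14 and PCDHB15) and G protein-coupled receptors (91 sites in 8 genes) had 0 sites covered in all 12 libraries, and the long noncoding RNA list had 0 members.

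Along the exon, the mean of the 6 lines was highest in the first segment on a relative scale and lowest next to the start on a scale of nucleotides. Over 5 segments of equal length from the start to the end of the exon, the means of the 6 lines were 62.2%, 58.5%, 56.9%, 55.5% and 58.1%. Segment 5 minus segment 1 was -4.06 points (SD 4.53 over lines), lower in 6 of 6 lines, with an exact sign-flip permutation p of 0.0312. COV644 had -12.2 points and EFO21 -6.29, and the other lines between -3.13 and -0.288. The mean without COV644 was -2.43. Of the variance of the 1026 site means, 0.497% lay between the segments. GGACT, the motif with the highest mean, made up 19.7% of listed sites in segment 1 and 17.2% in segment 5. The difference was not matched for motif. The call did not hold under other settings: p was 0.219 and 0.125 (exact permutation) with minimums of 10 and 50 reads, 0.656 with genes weighted equally (-1.03 points), 0.156 without sites in the span of another gene, a setting chosen after the data were seen, and 0.0625 without A549 replicate 2 or without EFO21 replicate 2. Within genes that had sites on both sides of the midpoint, the later part was lower by -6.4 points, with p = 0.0312 in the exact permutation test.

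By distance from the start, the mean over lines was 43% at 11 to 200 nt (16 sites), 55.2% from there to 500 nt (56 sites), 59.7% from 500 to 1000 nt (253 sites), 61.6% from 1000 to 2000 nt (517 sites) and 47.8% beyond 2000 nt (184 sites). Sites more than 1000 nt from the start were 15 points higher than those at 11 to 200 nt, with p = 0.0312 in the exact sign-flip permutation test, which is the opposite direction to the difference between segments 5 and 1. The bin at 11 to 200 nt held 16 sites in 15 genes, and this comparison rests on them.

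Over the sites tested in CAOV3, means with DMSO were 57.8%, 61.9%, 60.4%, 59.6% and 59.4% over segments 1 to 5. Segment 1 was thus the lowest with DMSO over these sites. Over the fewer sites covered in all 12 DMSO libraries, CAOV3 had 63.7% in segment 1 and 62.4% in segment 5. With STM3675 the means over the tested sites were 14.8%, 15.9%, 14%, 13.1% and 12.3%. By distance, CAOV3 went from 42.5% at 11 to 200 nt to 64.6% at 1000 to 2000 nt and 52% beyond 2000 nt with DMSO, and had 12%, 15.5% and 10.8% there with STM3675.

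**Figure D2:**
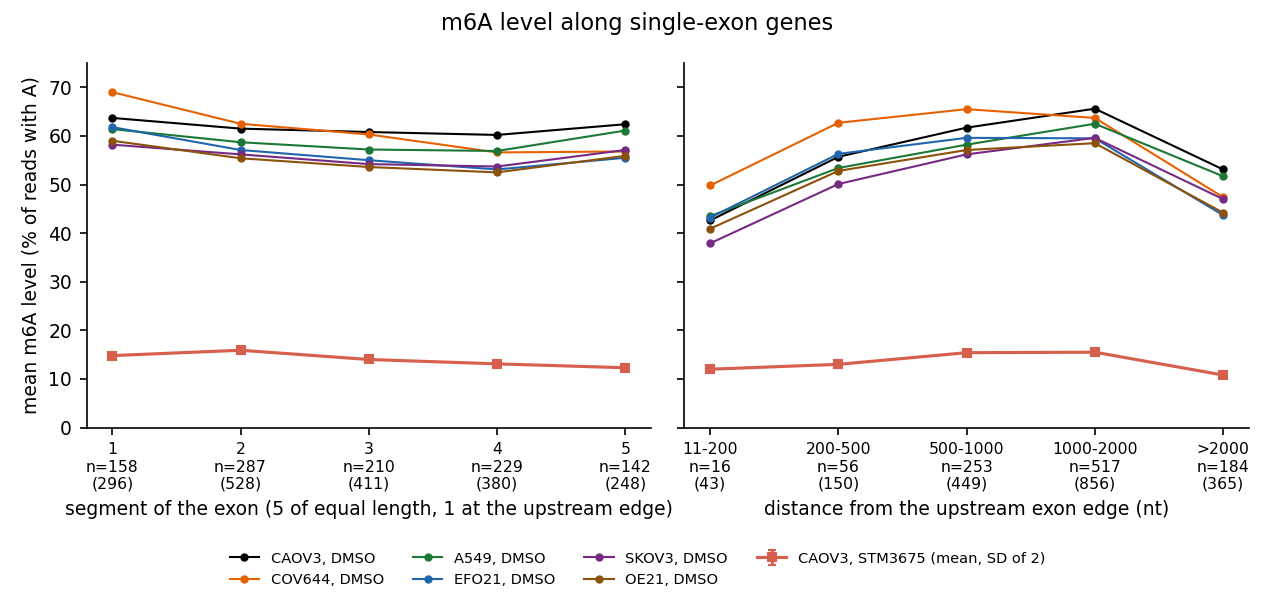
Mean m6A level (%) of single-exon DRACH sites by segment of the exon, 5 of equal length (left) and by distance from its upstream edge in nt (right), with 1 line per cell line with DMSO and squares for CAOV3 with STM3675 (mean and SD of 2 libraries); n counts sites covered in all 12 DMSO libraries and the number in brackets those covered in the 4 CAOV3 libraries. The mean of the lines goes from 62.2% in segment 1 to 55.5% in segment 4 and 58.1% in segment 5, and by distance from 43% to 61.6% and then to 47.8%.

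Single sites often differed among the lines. With a quasi-binomial logistic model over all 68873 covered sites of the table and Benjamini-Hochberg adjustment, 484 of the 1026 single-exon sites differed among lines at an adjusted p under 0.05, or 47.2%, beside 39.5% of all sites and 39.1% of DRACH sites. The count depends on the model: limma on logit levels, which takes no account of read depth, called 18 of the 1026, beside 1.37% of all sites. Each of 2 simulations of the 6-line design had 200 changed sites. Of their calls 11.2% and 34.7% were false, a larger share than the threshold of 0.05 allows. The real data had far more calls (39.5% of all sites), so these shares do not give the false share among the real calls. Of the 484 sites, COV644 was highest at 199 and CAOV3 at 177, while SKOV3 was lowest at 129, OE21 at 127 and EFO21 at 125. Sites of intermediate level differed most, 130 of 189 at a mean of 50% to under 75%, and 61 of 240 did at 90% or more. At sites of 90% or more the median range of lines was 4.21 points, and at 50% to under 75% it was 20.9. The counts by line and by level were not made over all sites of the table, so they are not particular to single-exon sites. In last exons too, CAOV3 had the highest mean (50.6%) and OE21 the lowest (42.1%).

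The sites with the largest ranges, of those with 50 or more reads in all 12 libraries, had COV644 as the highest line in 6 of 6 genes. The AGACA site of DNAJC30, a mitochondrial DnaJ protein (chr7, position 73682801), had 46.8% ± 2.9 in COV644, 18.5% ± 1.1 in A549, 16.9% ± 0.37 in EFO21, 16.5% ± 5.1 in CAOV3, 16.3% ± 0.37 in SKOV3 and 15.2% ± 3 in OE21. COV644 stood apart there, and the other 5 lines lay from 15.2% to 18.5% (adjusted p = 6.7e-11 in the quasi-binomial model, 0.0548 in limma). The TAACT site of the splicing factor gene SRSF8 (chr11, position 95067816) had 61.9% ± 4.7 in COV644, 41.4% ± 1.7 in EFO21 and 24% ± 5.6 in SKOV3. The GGACA site of PURA, a nucleic acid binding protein (chr5, position 140114861), had 96% ± 3.5 in COV644, 74.2% ± 1.8 in CAOV3 and 59.1% ± 6.3 in SKOV3. The GGACT site of IMP3, a ribosomal RNA processing protein (chr15, position 75639684), had 85.4% ± 3.9 in COV644 and 51.8% ± 3 in SKOV3. The AGACA site of HSPA1A (position 31817111) had 75.4% ± 3.6 in COV644 and 42.9% ± 4.5 in A549. The AGACT site of CHMP1B (position 11851881), within the span of GNAL, had 73.2% ± 4.8 in COV644 and 41.4% ± 1.2 in OE21. The median level of sites outside DRACH was 4.14% and 3.33% in the libraries of COV644, below that of every other line but OE21, whose libraries had 4% and 3.88%. In limma 4 of the 6 sites missed the threshold, with adjusted p from 0.0548 to 0.0684, while PURA and IMP3 passed it.

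With STM3675 the level fell at most single-exon sites. Over the 1863 sites in 211 genes with 20 or more reads in all 4 CAOV3 libraries, the mean level was 59.6% and 60.6% with DMSO and 14.2% and 14.4% with STM3675, a ratio of 0.237. The groups did not overlap, and the exact two-sided permutation p of 0.333 is the smallest that 2 libraries against 2 allow. In the quasi-binomial model over 185923 sites, 1655 of the 1863 sites (88.8%) fell at an adjusted p under 0.05, beside 35.2% of all sites, 73.9% of all DRACH sites and 81.8% of those in last exons. No single-exon site rose at that threshold (0 of 1863; 1 rose at an unadjusted p under 0.05, and limma called 0), beside 0.309% of all sites. The median difference was -48.3 points, beside -28.4 over all DRACH sites tested. The share that fell was near that of last exons when sites were grouped by mean level in the other 5 lines. Under 25% there, 70.1% of single-exon and 68.9% of last-exon sites fell. At 25% to under 50% the shares were 97.4% and 97.5%, and at 50% to under 75% they were 100% and 99.9%. Listing itself used DMSO levels, those of CAOV3 included. Over 1750 sites that another line alone would have listed, 1578 fell.

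Sites that were not called were mostly low to begin with. Of the 208, the median level with DMSO was 18.8% and 158 were under 25%, beside a median of 10.8% and 11.1% at sites outside DRACH in the same libraries. Among 1077 sites at 50% or more with DMSO, 1074 fell. The other 3 were GGACA sites of MARS2 (85.7% and 100% with DMSO, 95.9% and 78% with STM3675, from 21 reads in the shallowest library) and KLHL9 (98.9% and 93.9%, from 42 reads) and a GGACT site of CLDN3 (51.7% and 25.9%, from 20 reads).

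**Figure D3:**
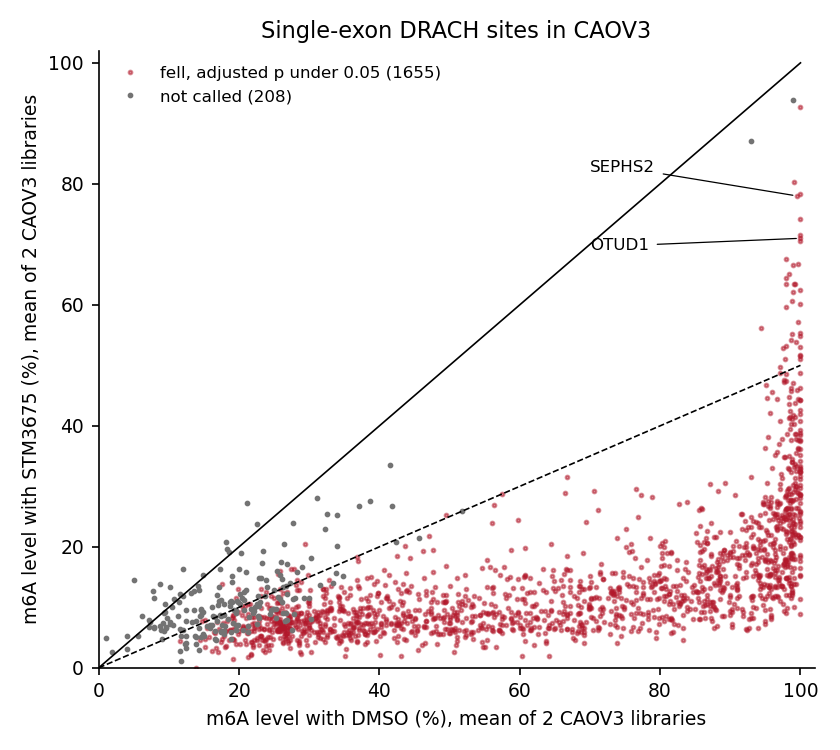
m6A level (%) of 1863 single-exon DRACH sites in CAOV3, with DMSO on the horizontal and STM3675 on the vertical axis, each the mean of 2 libraries; the solid line marks equal levels and the dashed line a ratio of 0.5. The 1655 sites that fell lie below the solid line, and those left above 50% lie at the right edge, above 90% with DMSO.

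By gene, with counts summed over all tested sites of a gene whether in DRACH or not, 208 of 211 fell, beside 81.6% of all 11175 genes tested. The other 3 were the histone genes H4C5 (27.7% ± 3.8 with DMSO and 24% ± 1.4 with STM3675) and H4C8 (11.6% ± 4.7 and 4.42% ± 1.5) and the kinesin gene KIF4B (15% ± 1.6 and 9.48% ± 0.47), each with 1 tested DRACH site. That DRACH site itself fell in H4C8 (18.1% ± 5 and 3.61% ± 0.47) and in KIF4B (25.3% ± 2 and 9.35% ± 0.92), and the sum that takes in sites outside DRACH missed the threshold. H4C8 and KIF4B passed the threshold at a minimum of 10 reads and without CAOV3 DMSO replicate 1. All tested genes of each list fell except among histones (17 of 19), for example 8 of 8 in the AP-1, immediate early and C/EBP list, 4 of 4 Frizzled receptors, 4 of 4 claudins and 5 of 5 G protein-coupled receptors. The values that follow are means over tested DRACH sites, each site counted equally. The AP-1 list went from 58.5% ± 0.95 to 14.6% ± 0.62, heat shock 70 genes from 41.5% ± 0.28 to 11.5% ± 0.067, and claudins from 63.7% ± 0.2 to 15.4% ± 0.46, with CLDN23 at 57.7% ± 0.7 and 13.8% ± 1.6. RBM15B, itself part of the writer complex, went from 51.8% ± 1.4 to 14% ± 0.062 over 27 sites, of which 20 fell. JUN went from 52.6% ± 0.75 to 11.4% ± 1.7 over 28 sites, of which 21 fell. FOXE1, a forkhead transcription factor, went from 54.7% ± 1.9 to 7.68% ± 0.099 over 13 sites. The lysophosphatidic acid receptor gene LPAR6 went from 67.1% ± 7.2 to 18.4% ± 4.5.

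The largest falls took near-complete sites to between 8.08% and 12.1%, beside 8.85% and 8.89% at sites outside DRACH. The AGACT site of BLOC1S4, a subunit of a lysosome biogenesis complex (chr4, position 6717032), had 93.4% and 98.1% with DMSO and 9.34% and 6.83% with STM3675. The TGACT site of EID1 (chr15, position 48878995) had 96.8% and 94.8%, then 8.96% and 8.49%, from 409 to 1474 reads. The GAACT site of TRAM1L1 (position 117084166) went from 98.7% ± 1 to 11.5% ± 2.9, the GAACT site of PURA (position 140115506) from 97.5% ± 1.2 to 10.6% ± 3.1, and the GGACT site of NDN, a MAGE family protein (position 23685927), from 98.8% ± 0.27 to 12.1% ± 2.8. All 5 kept the call in every alternative setting. Among the sites printed above, the CREBZF pair of GGACA sites went from 85.5% and 85.7% to 17% and 8.11%, the CEBPB site from 82% to 7.29% and the H3C6 site to 15%.

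A small set of sites kept more than 0.5 of its DMSO level. Among 603 sites at 50% or more with DMSO and 50 or more reads in every CAOV3 library, the level with STM3675 was a median of 0.176 of that with DMSO (quartiles 0.131 and 0.248), and 17 sites (2.82%) stayed above 0.5. In last exons the median was 0.15, and 1.05% of 11550 sites stayed above 0.5. These shares are not matched for starting level. Of sites covered in all 12 DMSO libraries, 18.2% of single-exon and 7.01% of last-exon sites had 90% or more in every line. Whether the shares differ at equal starting level was not tested. The GAACT site of SEPHS2, a selenophosphate synthetase that is itself a selenoprotein (chr16, position 30444188, 1686 nt from the start of chr16:30443631-30445874), had 99.5% and 99.4% with DMSO and 75.6% and 80.4% with STM3675, from 1213 to 1646 reads. Its ratio of 0.784 was the highest of the 603. The TAACA site 9 nt upstream, at position 30444197, went from 43.8% ± 0.56 to 4.53% ± 0.49, and the GGACC site at 1898 nt from 76.1% ± 2.4 to 6.71% ± 1.5, while the GAACT site at 1047 nt went from 100% to 44.2% ± 8.7, so neighbouring sites of 1 transcript ended at very different levels. The GGACA site of OTUD1, a deubiquitinase (position 23440747), went from 100% to 71% ± 2.6, the GAACT site of DNAJC30 (position 73682630) from 99.6% ± 0.57 to 66.7% ± 1, and the GGACT site of TSPYL5 (position 97276481) from 98.4% ± 1 to 65.1% ± 2.6. The GGACA site of KLHL9 (position 21334501) went from 97.9% ± 0.99 to 64.4% ± 4.6. Each of these 5 sites still fell in the quasi-binomial model, with adjusted p from 2.3e-100 to 2e-14. All 17 had 97.8% or more in CAOV3 with DMSO, and 3 of the 17 lay in TSPYL5. Whether conversion is incomplete at such sites was not tested.

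**Figure D4:**
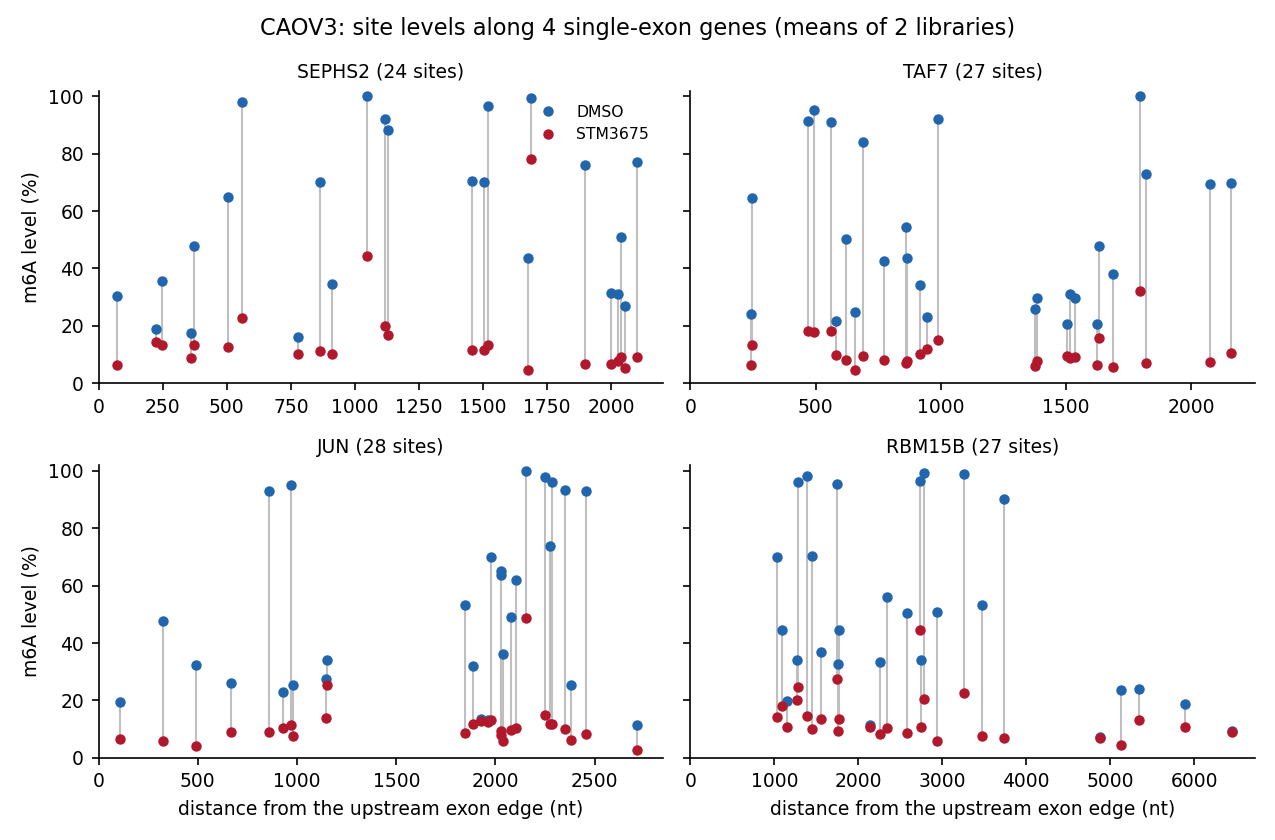
Levels (%) of the tested DRACH sites along SEPHS2, TAF7, JUN and RBM15B in CAOV3, by distance in nt from the upstream exon edge; blue points are DMSO and red points STM3675, means of 2 libraries, joined by a grey line. Neighbouring sites differ widely with DMSO, most end under 20% with STM3675, and 1 site of SEPHS2 stays at 78%.

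Over genes with at least 3 tested sites (165), the ratio of mean levels ran from 0.111 in NRARP, a Notch pathway regulator, to 0.535 in MARS2, with a median of 0.229. MARS2 went from 81.8% ± 1.1 to 43.8% ± 0.81 over 7 sites. Its GGACT site at 1600 nt kept 74.2% ± 1.7 and its GGACA site at 1713 nt 78.4% ± 4.5, both from 100%, from 37 and 38 reads in the shallowest library. Its GAACT site at 1223 nt went from 92.9% ± 2.4 to 23.2% ± 5.2 and its AAACT site at 1821 nt from 88.4% ± 2.9 to 14.1% ± 7.4.

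The level that was left rose with the level a site has elsewhere. Sites were grouped by their mean in the other 5 lines, which the CAOV3 libraries did not set. With STM3675 the mean was 8.01% ± 0.37 for sites under 25% elsewhere, 8.23% ± 0.26 at 25% to under 50%, 10.6% ± 0.12 at 50% to under 75%, 14.3% ± 0.49 at 75% to under 90%, and 27.8% ± 0.36 at 90% or more (234 sites). Last-exon sites in the same order had 7.92%, 8.32%, 9.91%, 13.1% and 23.1%, so the classes were near each other at low levels and single-exon sites were higher at 90% or more, by more than the spread of libraries. With DMSO these top groups had 97.3% and 96.3%. Among sites at 75% or more elsewhere, single-exon sites had a higher level with STM3675 than last-exon sites for each of 5 common motifs. Examples are 23.4% ± 0.27 and 19.3% ± 0.074 for GGACT, 25.3% ± 0.74 and 15.5% ± 0.22 for GAACT, and 18.2% ± 0.32 and 16.5% ± 0.24 for TGACT. The single-exon sites were also higher with DMSO for each of the 5 motifs. With DMSO the levels were 94.4% and 92.6% for GGACT, 94.4% and 91.5% for GAACT, and 92.5% and 90.6% for TGACT. The comparison by motif is therefore not matched for starting level. Single-exon sites at 75% or more elsewhere kept 24.4% ± 0.49 before the midpoint of the exon and 20.5% ± 0.3 after it, from 93% and 94.4% with DMSO. None of these comparisons of 2 libraries can reach p = 0.05 in an exact permutation test, and the smallest p is 0.333.

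**Figure D5:**
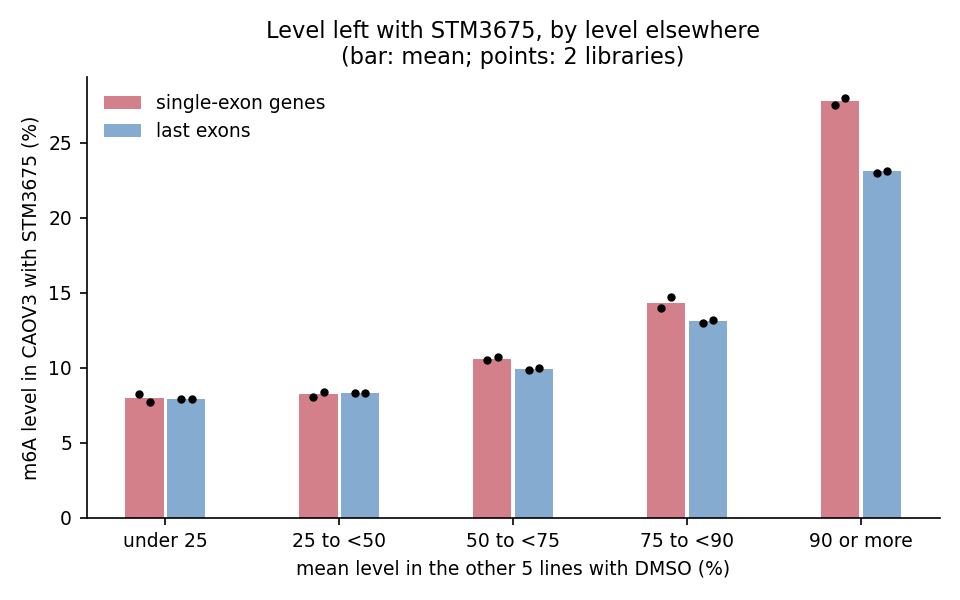
m6A level (%) left in CAOV3 with STM3675, by the mean level of a site in the other 5 lines with DMSO (horizontal axis), for single-exon and last-exon DRACH sites; bars are means over sites and points the 2 libraries. At 90% or more, single-exon sites keep 27.8% and last-exon sites 23.1%.

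Over all tested sites the ratio of single-exon to last-exon levels was 1.23 and 1.22 with DMSO and 1.31 and 1.31 with STM3675, a difference of 0.102 on the log2 scale (exact permutation p = 0.333, the smallest possible). Its sign changed to -0.0371 when each motif was weighted equally, so no direction is drawn from it.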

How the data were processed

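The submitters' processing notes name cutadapt, STAR and the build GRCh38, without versions; no label names a site caller or says how duplicates were handled. Per the file headers, the authors deposited a read count (A plus G) for each site in each library and an m6A fraction; this fraction multiplied by its count was whole within 1e-06, so A counts were recovered. The column prefixes D and T were taken for DMSO and STM3675, and 8 summary columns were not used. Levels were used at 20 or more reads in every library compared. Reads may not be independent molecules, so counting error is a lower limit.

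Sites and genes were tested over the whole table with a quasi-binomial logistic model (numpy 2.4.6, scipy 1.17.1, R 4.3.3), the dispersion moderated by squeezeVar of limma 3.58.1 and floored at 1, which gave 1 common value (1.67 in CAOV3, 1.71 over lines), and Benjamini-Hochberg adjustment at 0.05. Mean levels were compared by exact permutation tests over libraries or lines. The test was checked on simulated counts at the real read numbers, with 200 changed sites. A first simulation let the dispersion grow with depth. In it the CAOV3 design (185923 sites) found 19% of those set to 0.25 of the real level and 4% at 0.5, and 25.8% of its calls were false; the 6-line design (68873 sites) recovered 43% at 0.5 and 4% at 0.75, and 34.7% of its calls were false. A second, made after that outcome, held the dispersion at 1.7 at every depth, since the mean real dispersion was 1.53 to 1.76 below 1000 reads. There the CAOV3 design recovered 45% and 15% with 0 false calls, and the 6-line design 74% and 37% with 11.2% of calls false. Both simulations held far fewer changed sites than the real data had calls, so their false shares do not carry over to the real calls. Real sites over 1000 reads had a dispersion of 2.83 in CAOV3 and 2.34 over lines, above the common value, so they are called too readily, and counts of differing sites may hold more false calls than the adjustment states.

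Members, family lists and tests were chosen with earlier results of these data known. Genes and sites were named by rule: the 10 genes with the most covered sites; the 4 highest and 4 lowest gene means over 3 or more covered sites; the 5 largest falls and 5 highest STM3675 to DMSO ratios at 50 or more reads, and the 6 largest ranges of lines, 1 per gene; all rises if 5 or fewer; and 2 members per family list, of which some are not reported here. MARS2 and NRARP (extreme ratios), RBM15B, RANBP6, TMEM203, TMEM185B, CREBZF, PCBP1, CEBPB, LCMT2 and H3C6 sequences, and genes or sites that were not called were chosen after their values were seen. Alternatives were minimums of 10 and 50 reads, limma, a replicate block, 1 library left out, genes or motifs weighted equally, and background subtraction. Neighbouring annotation and sequences came from RefSeq, GRCh38.p14.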

Additional observations from a re-analysis of the deposited data

How the results depend on the processing

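Of 110 values of the main results under other settings, 89 kept their direction and call. STM3675 sites fallen numbered 959 of 999 at 50 reads, and the count of sites that differ among lines was 305 of 463 there, since fewer sites were tested; with limma on logit levels the latter was 18 of 1026, and the cause was not tested. The difference between segments 5 and 1 of the exon was -2.71 points (p = 0.219, exact permutation) at 10 reads, -3.25 (0.125) at 50 reads, -1.03 (0.656) over genes and -3.15 (0.156) without sites in the span of another gene, a setting chosen after the data were seen, and reversed to 15 points (0.0312) in nucleotides; the cause was not tested. The STM3675 change in mean level was -44.5, -47.7, -43.7 and -47.2 points with 10 reads, 50 reads, background subtracted and sites that another line would have listed. The single-exon to last-exon ratio (log2 difference) was 0.0866 and 0.148 at 10 and 50 reads, 0.0314 over genes, 0.0784 against last-exon sites over 400 nt in, 1.07 with background subtracted, where levels with STM3675 come near 0, and reversed to -0.0371 over motifs. Leaving out 1 library at a time gave 1333 to 1527 sites and 204 to 212 genes fallen, 353 to 507 sites differing among lines, a range of lines of 6.17 to 6.88 points, 12 to 12.6 points over last exons, -4.55 to -3.54 points between segments 5 and 1, -45.9 to -45 points with STM3675 and a log2 ratio of 0.0978 to 0.108. Libraries of the same number showed no common deviation (r from -0.11 to 0.0888 over 15 pairs of lines, -0.0275 in CAOV3). Counting error at these read numbers can hide a common deviation, so whether the numbers pair the libraries cannot be told. With a replicate block 1288 sites and 208 genes fell and 486 sites differed among lines. Of named items, 10 sites kept their STM3675 call in all 80 values, 4 of 96 values of the 6 wide-ranging sites lost theirs, all with limma, and 4 of 324 gene values gained one (H4C8 and KIF4B). The 208 sites that were not called had a median of 30 reads in their shallowest library, beside 54 over all tested sites, and a median level of 18.8% with DMSO; whether depth or level set this was not tested.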
